A study of Mus musculus with 4 samples.

Results

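The 10 genes described here encode enzymes and transporters of the epidermal lipid barrier: Elovl4, Cyp4f39, Cers3, Pnpla1, Nipal4, Abca12, Alox12b, Aloxe3, Ephx3 and Sdr9c7. They were taken as a list of genes of acylceramide synthesis, oxidation and lamellar body transport, matched by Ensembl identifier to their symbols, and are 10 of the 22524 genes in the deposited tables. All 10 passed the filter on low counts, which left 14265 genes for testing. RNA was sequenced from tdTomato-positive cells that had been sorted by flow cytometry from pre-tumorigenic dermal hyperplasia of mice. Every mouse carried Tyr::NrasQ61K, an oncogenic Nras driven by the tyrosinase promoter, together with the tamoxifen-inducible recombinase Tyr::CreERT2 and the reporter R26R-LSL-tdTomato. The 2 libraries of the group named Ezh2Y646N came from mice that also had ColA1-LSL-Ezh2Y646N, a conditional mutant of the histone methyltransferase Ezh2. The 2 libraries of the group named NrasQ61K came from mice without it. Tamoxifen given in vivo switched on the tdTomato label in both groups. The labels give no age, and they do not say whether the libraries of a group came from separate animals, so each p-value reflects differences among these 4 libraries that may be technical. Because Tyr::CreERT2 acts where the tyrosinase promoter is active, the sort was directed at melanocytic cells.

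The outer epidermis keeps water in with stacked lipid sheets between its dead cells. Keratinocytes of the upper layers build acylceramides, ceramides whose fatty acid is so long that it spans a membrane and carries linoleic acid at its far end, and load them into lamellar bodies for secretion. Lipoxygenases then oxidise the linoleate, and the product is attached to the proteins of the cornified envelope as the corneocyte lipid envelope. Inherited loss of several of these genes causes ichthyosis in people. The pathway is a property of differentiating keratinocytes and not of melanocytes.

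Total counts ranged from 14808801 to 20600297 per library. Ezh2 RNA did not separate the groups, with a log2 fold change of -0.11 and an SE of 0.39 (edgeR's adjusted p = 0.944), and counts per gene cannot tell the mutant transcript from the normal one, so the genotype labels could not be checked. Nras and the tyrosinase gene Tyr had log2 fold changes of -0.07 and 0.44 (edgeR's adjusted p = 0.944 and 0.435). Melanocyte markers were present in every library, with the melanin enzyme gene Dct at 2203 and 2757 CPM (counts scaled to a common library size, with TMM factors) in Ezh2Y646N and 1486 and 2002 CPM in NrasQ61K. Keratinocyte RNA was present too: the suprabasal keratin Krt10 was at 24868 and 16045 CPM in Ezh2Y646N and at 1650 and 4309 CPM in NrasQ61K. In bulk libraries fewer cells of a type and less RNA per cell cannot be told apart.

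The lipid barrier genes were higher in the libraries labelled Ezh2Y646N. By edgeR's quasi-likelihood test with Benjamini-Hochberg adjustment over all genes, 6 of the 10 rose at an adjusted p under 0.05, where 1.10% of all tested genes rose. None fell by edgeR, DESeq2 or limma voom, and none had a negative fold change at an unadjusted p under 0.05; 0.673% of all tested genes fell by edgeR. All 10 log2 fold changes were above 0, with a median of 2.13, against a median of -0.04 over all 14265 genes. In 9 of the 10, both Ezh2Y646N libraries lay above both NrasQ61K libraries, an order found in 21.1% of tested genes; only Nipal4 overlapped. The same 9 had an unadjusted p under 0.05, where 7.28% of tested genes were higher at that level. Summed over the 10 genes, the level was 1224 and 1014 CPM in Ezh2Y646N and 159 and 340 CPM in NrasQ61K.

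The count rests in part on single libraries. Without Ezh2Y646N replicate 1, 3 members rose (0.335% of tested genes), and without NrasQ61K replicate 2 all 10 did (4.98%). DESeq2 called 9 members higher (3.71% of tested genes) and limma voom 6 (1.05%).

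**Figure D1:**
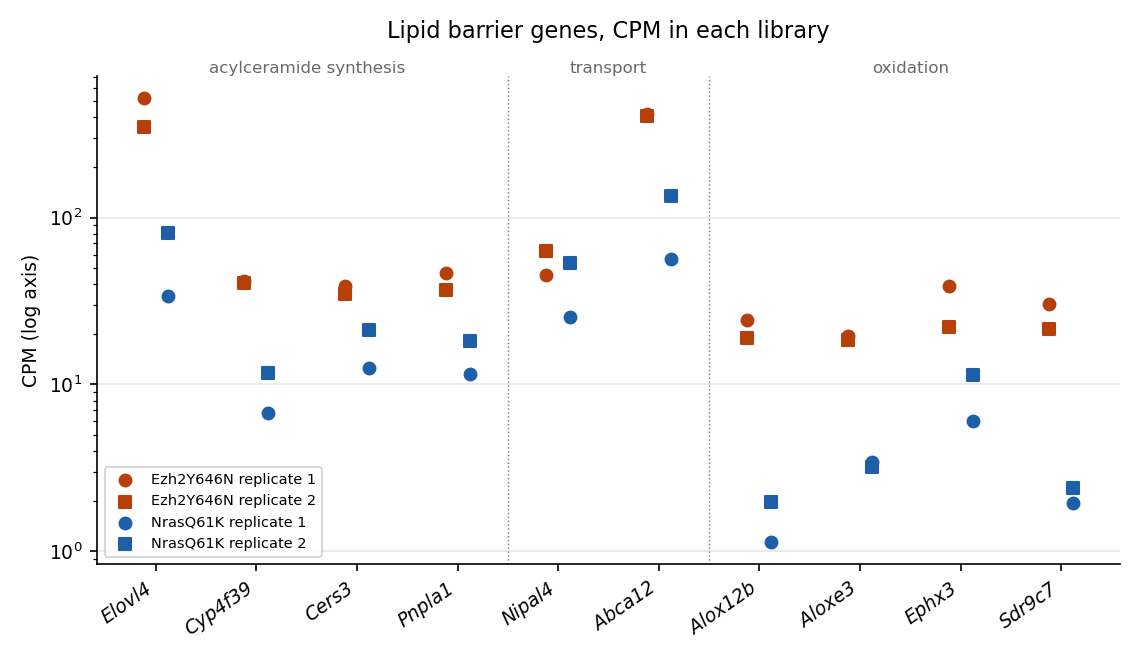
CPM (log axis) of each lipid barrier gene in each of the 4 libraries, in pathway order, with colour for group and shape for replicate number. The groups are apart for 9 genes and overlap for Nipal4, and Alox12b has 1.14 and 1.97 CPM in NrasQ61K against 24.3 and 19.1 CPM in Ezh2Y646N.

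Acylceramide synthesis starts with Elovl4 (ENSMUSG00000032262, GRCm38 chromosome 9, 83778692 to 83806277, minus strand), the elongase that makes fatty acids of ultra-long chain. It was counted at 522 and 349 CPM in Ezh2Y646N and at 34.0 and 80.5 CPM in NrasQ61K. Its lowest Ezh2Y646N library was more than 4 times its highest NrasQ61K library, and it rose by 2.93 ± 0.43 (SE) in log2 fold change, with edgeR's adjusted p at 0.0306. Cyp4f39 (ENSMUSG00000061126, chromosome 17, 32452723 to 32493320), the cytochrome P450 that hydroxylates the far end of these chains, was at 42.0 and 40.5 CPM against 6.76 and 11.7 CPM. The Ezh2Y646N libraries agreed closely and lay well above the others, and the gene rose with a log2 fold change of 2.15 and an SE of 0.32 (edgeR's adjusted p = 0.0306). Both genes lost their calls without Ezh2Y646N replicate 1, where edgeR's adjusted p was 0.0696 for Elovl4 and 0.0560 for Cyp4f39.

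The genes of the enzymes that join the parts together did not pass the threshold in the main edgeR fit. Cers3 (ENSMUSG00000030510, chromosome 7, 66743504 to 66823691), the ceramide synthase that uses these ultra-long chains, was at 38.7 and 35.1 CPM in Ezh2Y646N and 12.6 and 21.1 CPM in NrasQ61K, a difference of 1.13 ± 0.31 (SE) on the log2 scale (edgeR's adjusted p = 0.132). Pnpla1 (ENSMUSG00000043286, chromosome 17, 28858411 to 28890309), the transacylase that adds linoleate in the last step, was at 46.6 and 36.8 CPM and at 11.6 and 18.3 CPM. The difference was 1.48 ± 0.30 (SE) on the log2 scale (edgeR's adjusted p = 0.0613). For both genes the groups were apart, with NrasQ61K replicate 2 nearest to the Ezh2Y646N libraries. Pnpla1 overlaps the antisense gene Pnpla1os at its start, and the strand setting of the counting is not given in the sources used here, so reads of that gene could be among its counts.

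Elovl4 was also set against Cers3 within each library. The ratio of Elovl4 to Cers3 CPM was 13.5 and 9.95 in Ezh2Y646N and 2.70 and 3.80 in NrasQ61K. The ratio of Pnpla1 to Cers3 moved much less, at 1.20 and 1.05 against 0.925 and 0.864. These ratios are descriptions of the libraries, and the differences between members were not tested.

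The transport genes split. Abca12 (ENSMUSG00000050296, chromosome 1, 71242276 to 71414910, minus strand), the transporter that loads glucosylceramides into lamellar bodies, was at 417 and 409 CPM in Ezh2Y646N and at 56.1 and 136 CPM in NrasQ61K. It rose with a log2 fold change of 2.11 (SE 0.40), and edgeR's adjusted p of 0.0499 lies at the edge of the threshold. The call ended with RLE size factors, when the fit was run without robust weights, and without either Ezh2Y646N library, where the adjusted p reached 0.146. Nipal4 (ENSMUSG00000020411, chromosome 11, 46148155 to 46166508, minus strand), a membrane protein of the NIPA magnesium transporter family that is needed for the lipid envelope, was at 45.5 and 62.8 CPM against 25.5 and 53.5 CPM. It was the single member whose groups overlapped, because NrasQ61K replicate 2 lay above Ezh2Y646N replicate 1. The difference was 0.45 ± 0.37 (SE) on the log2 scale (edgeR's adjusted p = 0.682), and it ranged from 0.02 to 1.12 over the alternatives.

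In the oxidation step, Alox12b (ENSMUSG00000032807, chromosome 11, 69156989 to 69169792) encodes the lipoxygenase that oxidises the linoleate of acylceramide first. It was at 24.3 and 19.1 CPM in Ezh2Y646N and at 1.14 and 1.97 CPM in NrasQ61K, from 423 and 276 counts against 18 and 41. The groups were far apart, and the lower one rests on few counts. The gene rose by 3.78 ± 0.40 (SE) on the log2 scale (edgeR's adjusted p = 0.0220) and ranked 6 of 14265 by p. Aloxe3 (ENSMUSG00000020892, chromosome 11, 69125896 to 69149115), whose enzyme turns the hydroperoxide made by that of Alox12b into an epoxide, was at 19.4 and 18.4 CPM against 3.41 and 3.21 CPM. It was the most even member within groups, with a log2 fold change of 2.51 and an SE of 0.32 (edgeR's adjusted p = 0.0268).

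Sdr9c7 (ENSMUSG00000040127, chromosome 10, 127898518 to 127911761), the dehydrogenase that makes the epoxy-ketone from which the lipid is bound to protein, was at 30.5 and 21.5 CPM in Ezh2Y646N and at 1.96 and 2.40 CPM in NrasQ61K. It rose with a log2 fold change of 3.57 and an SE of 0.35 (edgeR's adjusted p = 0.0220) and ranked 5 of 14265 by p. Ephx3 (ENSMUSG00000037577, chromosome 17, 32183770 to 32189549, minus strand), the epoxide hydrolase of the alternative branch, was at 38.9 and 22.1 CPM against 6.07 and 11.4 CPM. Its groups were apart, but its Ezh2Y646N libraries were the most unequal of all members, and its log2 fold change of 1.80 (SE 0.41) had an edgeR adjusted p of 0.0835. Alox12b, Aloxe3 and Sdr9c7 passed the threshold in each of the 11 alternatives run, and the other 7 members did not.

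**Figure D2:**
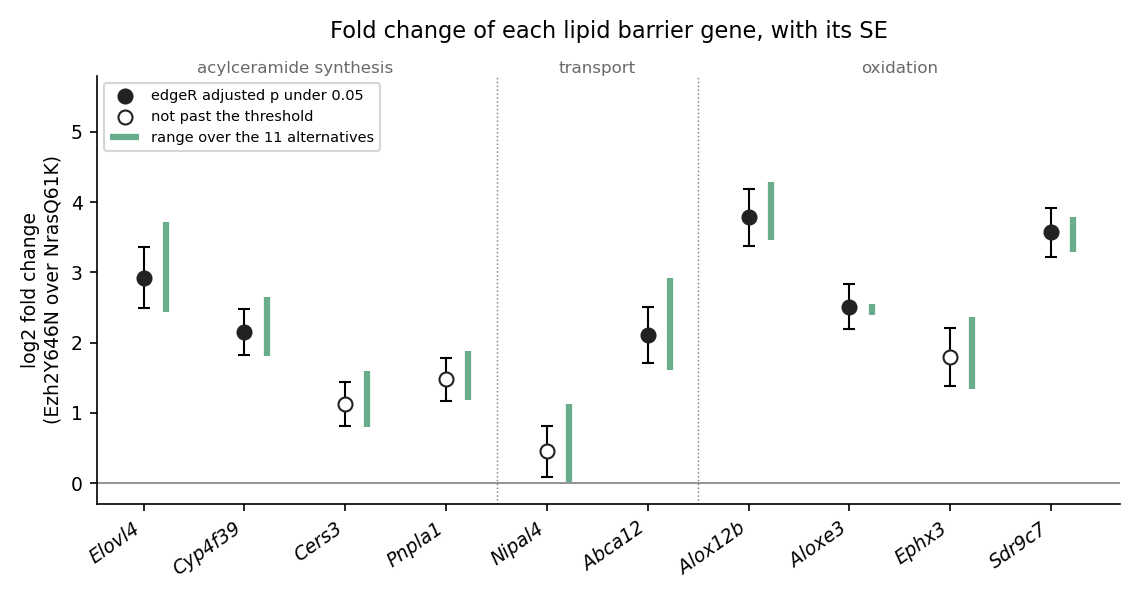
Log2 fold change of each lipid barrier gene with its SE (black bars; filled points passed edgeR's adjusted threshold of 0.05) and the range over the 11 alternative analyses (green bars). All points are above 0, from 0.45 for Nipal4 to 3.78 for Alox12b, and the 3 genes Alox12b, Sdr9c7 and Elovl4 are the highest.

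By step, 3 of 4 oxidation genes rose, with a median log2 fold change of 3.04. Of the 4 synthesis genes 2 rose, with a median of 1.81. Of the 2 transport genes 1 rose. Over all tested genes 1.10% rose. These counts by step depend on the fit. In DESeq2, Cers3, Pnpla1 and Ephx3 passed as well (DESeq2's adjusted p = 0.0310, 0.00122 and 0.00147). They also passed with no filter on low counts and with the replicate block. No difference between steps was tested.

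Levels were compared between genes per kb of annotated exon. On this scale Elovl4 was the most abundant member in every library, at 172 and 115 CPM per kb in Ezh2Y646N and 11.2 and 26.6 CPM per kb in NrasQ61K. The order below it changed between groups: Abca12 came next in both Ezh2Y646N libraries, at 28.2 and 27.6 CPM per kb, while Nipal4 came next in both NrasQ61K libraries, at 7.41 and 15.5 CPM per kb. In Ezh2Y646N the mean level of Alox12b was 8.92 CPM per kb, close to Pnpla1 at 8.62 and Sdr9c7 at 8.56, and these neighbours did not differ beyond their spread. In NrasQ61K, Alox12b, Sdr9c7 and Aloxe3 were the lowest 3 members, all under 1 CPM per kb. Alox12b and Aloxe3 act in sequence, and the ratio of Alox12b to Aloxe3 CPM was 1.25 and 1.03 in Ezh2Y646N and 0.333 and 0.612 in NrasQ61K.

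The members also differed between libraries of the same group. In NrasQ61K, 9 of 10 were lower in replicate 1 than in replicate 2, by up to 1.27 on the log2 scale for Abca12, and Aloxe3 was the exception at 0.09 above. In Ezh2Y646N, 9 of 10 were higher in replicate 1, by up to 0.82 for Ephx3, and Nipal4 was the exception. The share of all tested genes with these orders was not counted, so neither order can be called particular to the members. Suprabasal epidermis markers were unequal in the same direction, with a summed level of 3582 and 9339 CPM in the NrasQ61K libraries and 47478 and 31643 CPM in the Ezh2Y646N libraries.

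Those markers moved with the members between groups as well. Of 13 tested suprabasal and granular layer markers, 5 rose and 13 had both Ezh2Y646N libraries above both NrasQ61K libraries, with a median log2 fold change of 2.57. DESeq2 called 13 of them higher and limma voom 9, and edgeR called 3 without Ezh2Y646N replicate 1. The 5 that rose, named after their values were seen, were the cornified envelope and granule genes Lor, Flg2 and Hrnr, the desmosomal cadherin Dsc1 and the protease Asprv1. Krt10 and Krt1, the suprabasal markers of highest CPM, had log2 fold changes of 2.78 and 2.30 (edgeR's adjusted p = 0.0514 and 0.0689). Of the marker list, 2 genes of the Lce1 family had a 0 count in some library and none of the keratins did. The keratin Krt2, named after its values were seen, was very unequal within Ezh2Y646N. It was at 2898 and 38.1 CPM there and at 6.95 and 18.8 CPM in NrasQ61K (edgeR's adjusted p = 0.485). Basal epidermis markers did not separate the groups: 0 of 8 were called by edgeR, 0 had an unadjusted p under 0.05, DESeq2 and limma voom called 0, and the summed level was 15246 and 23418 CPM against 11320 and 25766 CPM. The list's median was 0.19, with Krt5 and Krt14 at -0.01 and -0.36, and both of these changed sign without NrasQ61K replicate 2 (0.77 and 0.57), Krt5 with RLE size factors as well. Without NrasQ61K replicate 2 the list's median was 0.68. The part of suprabasal keratinocyte RNA in the members' differences was not tested.

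Set against the summed suprabasal markers of the same library, the members no longer shared a direction. Krt10 and Krt1 made up most of that sum in every library, so the ratios mainly follow these keratins. In Ezh2Y646N, Krt10 was at 24868 and 16045 CPM and Krt1 at 10923 and 9237 CPM. In NrasQ61K they were at 1650 and 4309 CPM and at 1119 and 2962 CPM. Log2 fold changes of the tested markers ran from 1.54 for Casp14 to 6.83 for Krt2, and ratios to other single markers were not taken. The 10 together came to 25.8 and 32.05 CPM per 1000 CPM of suprabasal markers in Ezh2Y646N and 44.4 and 36.4 in NrasQ61K, so the groups were apart and Ezh2Y646N was the lower. Elovl4 and Abca12 made up most of the members' sum. Alox12b stood at 0.512 and 0.602 per 1000 against 0.318 and 0.211, Sdr9c7 at 0.643 and 0.679 against 0.547 and 0.257, and Elovl4 at 10.99 and 11.03 against 9.49 and 8.62. In these 3 genes both Ezh2Y646N libraries remained above both NrasQ61K libraries. All members of a library were divided by the same sum, and these 3 already had the highest log2 fold changes. Their place here is therefore no separate observation. Nipal4 had the widest gap in the other direction, at 0.958 and 1.98 per 1000 against 7.13 and 5.73, and Cers3 followed at 0.815 and 1.11 against 3.51 and 2.26. Pnpla1, Abca12 and Ephx3 were also lower in both Ezh2Y646N libraries on this scale, and Cyp4f39 and Aloxe3 overlapped. Set against basal markers instead, all 10 were higher in both Ezh2Y646N libraries. With 2 libraries against 2 these ratios were not tested.

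**Figure D3:**
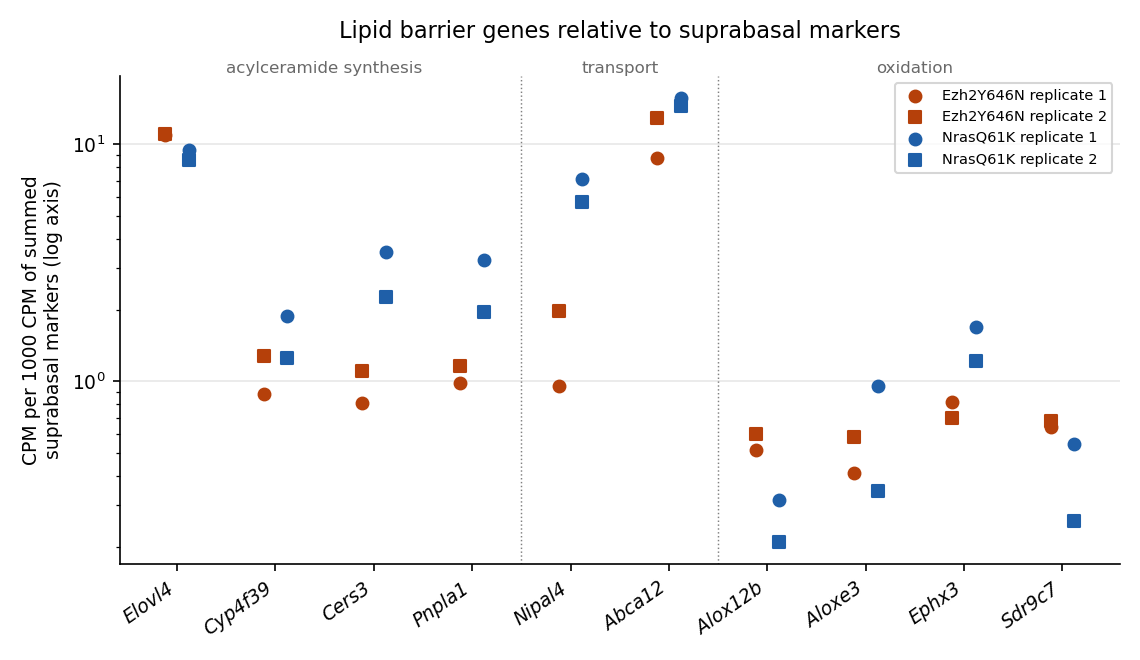
Level of each lipid barrier gene per 1000 CPM of the summed suprabasal markers of the same library (log axis), with colour for group and shape for replicate number. Alox12b, Sdr9c7 and Elovl4 are higher in Ezh2Y646N, 5 genes led by Nipal4 are lower, and Cyp4f39 and Aloxe3 overlap. Krt10 and Krt1 make up most of the marker sum.

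Other cell types of skin were measured alongside. Hair shaft and inner root sheath markers moved opposite to the members, with 5 of 10 lower at the threshold, a median log2 fold change of -2.85 and a summed level of 502 and 229 CPM in Ezh2Y646N and 2914 and 1527 CPM in NrasQ61K. Tchh and Krt71, the hair markers of highest mean CPM, fell with log2 fold changes of -2.51 and -2.43. Over the list, DESeq2 called 10 lower and limma voom 5, and edgeR called 1 without Ezh2Y646N replicate 2. The calls of Tchh and Krt71 were lost without either NrasQ61K library or without Ezh2Y646N replicate 2, with edgeR's adjusted p up to 0.271 and 0.408. The sebaceous gland also makes very long chain lipids, and 2 of 9 of its markers rose: the desaturase genes Scd1 at 1105 and 1148 against 353 and 366 CPM, and Scd3, named after its values were seen, at 15.3 and 23.2 against 2.46 and 4.08 CPM. The call of Scd1 was lost without either Ezh2Y646N library (edgeR's adjusted p up to 0.115). Soat1, an abundant gene of the list, had a log2 fold change of -0.13 that turned positive in limma voom (0.05). The sebaceous genes Mc5r and Awat2 were under 2.1 CPM in every library, the list's median was 0.87, and its summed level was 1312 and 1426 CPM against 545 and 536 CPM. Melanocyte markers had 0 of 10 calls in edgeR, DESeq2 and limma voom and 0 with an unadjusted p under 0.05, with a median of 0.23 and Tyrp1 at 0.05. Fibroblast markers had 1 of 8 lower, Dpt, named after its values were seen, and a median of -1.16, with Col1a1 and Col3a1 at -1.13 and -1.20. Fbln1, also named after its values were seen, went the other way, at 104 and 102 CPM against 75.8 and 49.0 CPM. Its log2 fold change of 0.72 did not pass (edgeR's adjusted p = 0.255). Without either Ezh2Y646N library no fibroblast marker was called, and the list's median was -0.62 without replicate 1 and -2.01 without replicate 2, with Col1a1 at -0.55 and -2.12. Macrophage and dendritic cell markers had 0 of 8 calls in edgeR and limma voom, 3 lower in DESeq2, 6 lower at an unadjusted p under 0.05 and a median of -1.48, with Cd74 and Lyz2 at -1.32 and -1.51. Without NrasQ61K replicate 2 this median was -0.72, with Cd74 at -0.20 and Lyz2 at -0.87. The part of these cell types in the members' values was not tested.

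The rest of the ceramide pathway was less uniform than the members. Of 12 tested genes of sphingoid base and ceramide synthesis, 1 rose and 1 fell, with a median log2 fold change of 0.14. Sptlc3, a subunit of serine palmitoyltransferase that is prominent in skin, rose from 10.9 and 27.6 to 131 and 87.8 CPM, with 2.501 for the log2 fold change (SE 0.44, edgeR's adjusted p = 0.0418). Its small subunit genes went apart: Sptssa had a log2 fold change of 1.35 (adjusted p = 0.0706), while Sptssb fell from 3.67 and 1.68 CPM to 0 counts in both Ezh2Y646N libraries. Against a floor of 3 counts per library, Sptssb was at least 14.1-fold lower (edgeR's adjusted p = 0.0499). None of the other 5 ceramide synthases, Cers1, Cers2, Cers4, Cers5 and Cers6, had an unadjusted p under 0.05.

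Fatty acid elongation had 1 of 13 tested genes higher and a median of 0.49. Elovl6, the elongase of medium and long chains, rose from 133 and 123 to 349 and 358 CPM (log2 fold change 1.46, SE 0.22, edgeR's adjusted p = 0.0306). Elovl1, which supplies chains to Elovl4, was at 100 and 71.8 CPM against 29.8 and 37.1 CPM and did not pass (1.36, adjusted p = 0.0507), nor did Elovl3, an elongase of sebaceous glands (1.67, 0.147). Among genes of fatty acid activation, triglyceride turnover and lipases, 3 of 13 rose and the median was 0.95. They were the lipase gene Lipm (1.98, SE 0.24, edgeR's adjusted p = 0.0243), the acyl-CoA synthetase gene Acsl1 (1.82, SE 0.26, 0.0293) and the triglyceride synthase gene Dgat2 (2.29, SE 0.43, 0.0498). In this list 5 of 13 genes had a negative log2 fold change. Among them Acsl3, named after its values were seen, had groups apart and lower without passing (-0.81, edgeR's adjusted p = 0.263). Triglyceride is the donor from which Pnpla1 takes linoleate. Its cofactor gene Abhd5, named after its values were seen, was at 98.5 and 69.8 CPM against 34.8 and 49.7 CPM and did not pass (edgeR's adjusted p = 0.144).

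Lamellar body genes had 1 of 18 tested members higher and a median of 0.69, with 13 of 18 apart and higher in Ezh2Y646N. Cdsn, the adhesion protein that lamellar bodies deliver to corneodesmosomes, rose from 7.20 and 29.1 to 323 and 184 CPM (log2 fold change 3.80, SE 0.63, edgeR's adjusted p = 0.0368). The epidermal ceramidase gene Acer1 (2.37, adjusted p = 0.0520) and the secreted phospholipase gene Pla2g2f (2.03, 0.0667) did not pass. Of the 6 envelope scaffold and transglutaminase genes 3 rose, namely Ivl (1.84, edgeR's adjusted p = 0.0370), Tgm5 (1.90, 0.0421) and Ppl (1.70, 0.04995), with a median of 1.67. Only Tgm3, named after its values were seen, had a negative log2 fold change (-0.79, edgeR's adjusted p = 0.716). Involucrin, the product of Ivl, and periplakin, that of Ppl, are envelope proteins to which barrier lipids or their scaffold are attached.

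Cholesterol, another large barrier lipid, showed no called gene in edgeR. Of 14 cholesterol synthesis genes 0 passed in edgeR, 4 had an unadjusted p under 0.05, all higher, and the median was 0.38. The smallest p-values belonged to Mvk (0.91), Fdps (0.96) and Dhcr7 (0.94), with edgeR's adjusted p from 0.104 to 0.115. DESeq2 called 3 of them higher and limma voom 0. Of 16 transcription factors of late epidermal differentiation, with a median of 0.51, 1 rose: Rora, a nuclear receptor, at 368 and 292 CPM against 82.5 and 108 CPM (1.79, SE 0.26, edgeR's adjusted p = 0.0293). Grhl3 (1.32, adjusted p = 0.0701) and Gata3 (1.14, 0.0703), regulators of barrier formation, had groups apart and higher without passing. Prdm1 (-1.72, adjusted p = 0.148) and Cebpb (-0.66, 0.190), named after their values were seen, had groups apart and lower without passing. DESeq2 called 3 of the 16 higher and 1 lower.

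Most of these calls in related genes did not hold when 1 library was left out. Without Ezh2Y646N replicate 1, those of Sptlc3, Sptssb, Elovl6, Acsl1, Dgat2, Cdsn, Ivl, Tgm5, Ppl and Rora were lost, with edgeR's adjusted p up to 0.200 for Cdsn. Without Ezh2Y646N replicate 2, those of Sptlc3, Elovl6, Dgat2, Cdsn, Tgm5 and Ppl were lost, with edgeR's adjusted p from 0.0502 for Sptlc3 to 0.159 for Ppl, and without NrasQ61K replicate 1 that of Sptssb was (0.161). RLE size factors ended the calls of Sptssb, Dgat2 and Ppl (edgeR's adjusted p = 0.0523 for each). The call of Lipm held in each of these fits.

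**Figure D4:**
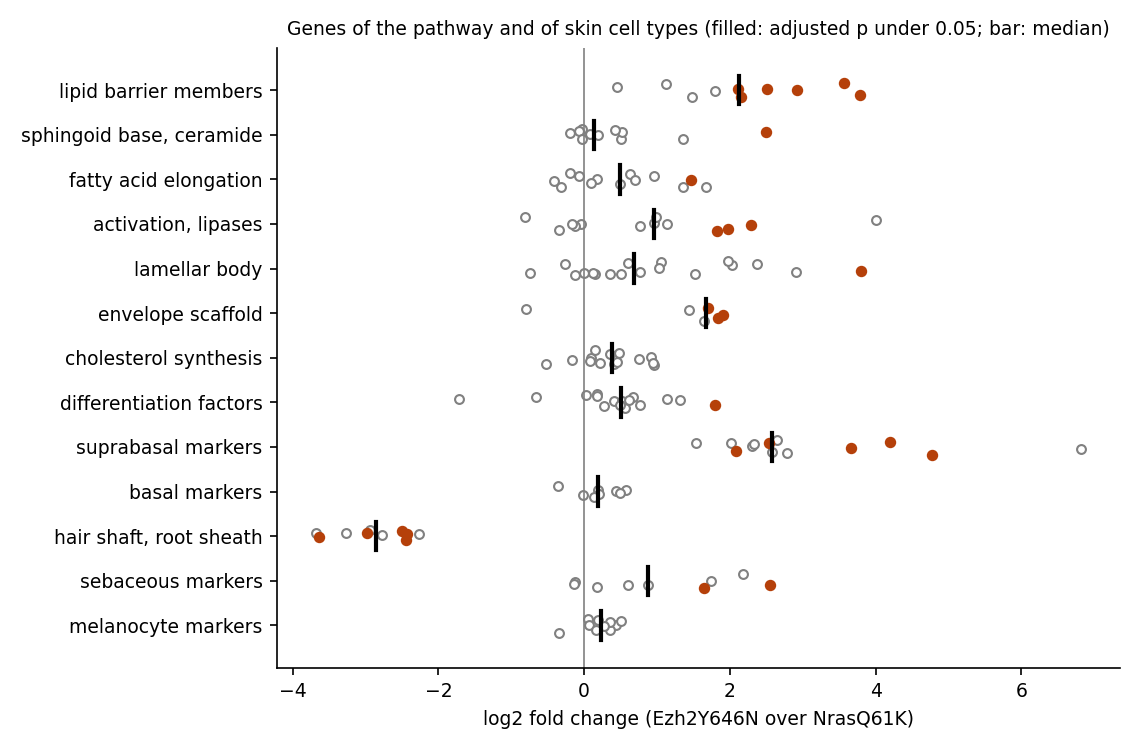
Log2 fold change (Ezh2Y646N over NrasQ61K) of each tested gene in the lipid barrier list, 7 lists of related genes and 5 lists of skin cell type markers; filled points passed edgeR's adjusted threshold of 0.05, black bars are list medians, and Sptssb, at 0 counts in Ezh2Y646N, is left out. The members (median 2.13) and the suprabasal markers (2.57) lie farthest to the right and the hair markers (-2.85) farthest to the left.

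Relatives of the members within their gene families did not move as a block. Of 57 listed relatives, 45 were tested, 4 rose and 1 fell, with a median log2 fold change of 0.11. Besides Elovl6, those that rose were the retinol dehydrogenase genes Rdh1 and Rdh9 and the transporter gene Abca5, and the one that fell was Dhrs9; Rdh9 and Abca5 were named after their values were seen. None of the tested relatives of Cyp4f39, namely Cyp4f13, Cyp4f16 and Cyp4f17, had an unadjusted p under 0.05, and none of those of Ephx3, namely Ephx1 and Ephx2, did. Of the relatives of Nipal4, Nipal1 had a log2 fold change of 1.92 (edgeR's adjusted p = 0.143).

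Aloxe3, Alox12b and Alox8 form a cluster of lipoxygenase genes on chromosome 11, and of these Alox8 did not pass the threshold. Aloxe3 and Alox12b lie on the plus strand with 7874 bases between them, and Alox8 begins 14140 bases beyond Alox12b on the opposite strand (69183932 to 69197843). Alox8, another skin lipoxygenase, named after its values were seen, was at 6.09 and 2.003 CPM in Ezh2Y646N and at 26.5 and 12.7 CPM in NrasQ61K, so its groups were apart in the opposite direction. Its log2 fold change was -2.26 (SE 0.58), which did not pass (edgeR's adjusted p = 0.110). Alox12 (70241457 to 70255353) and Alox12e (70315610 to 70322628) lie farther along the chromosome, outside this cluster. Alox12 was at 46.7 and 30.0 CPM against 18.5 and 9.54 CPM (1.46, edgeR's adjusted p = 0.118). Alox12e was at 611 and 751 CPM against 220 and 1028 CPM, with no separation (0.13, adjusted p = 0.958).

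**Figure D5:**
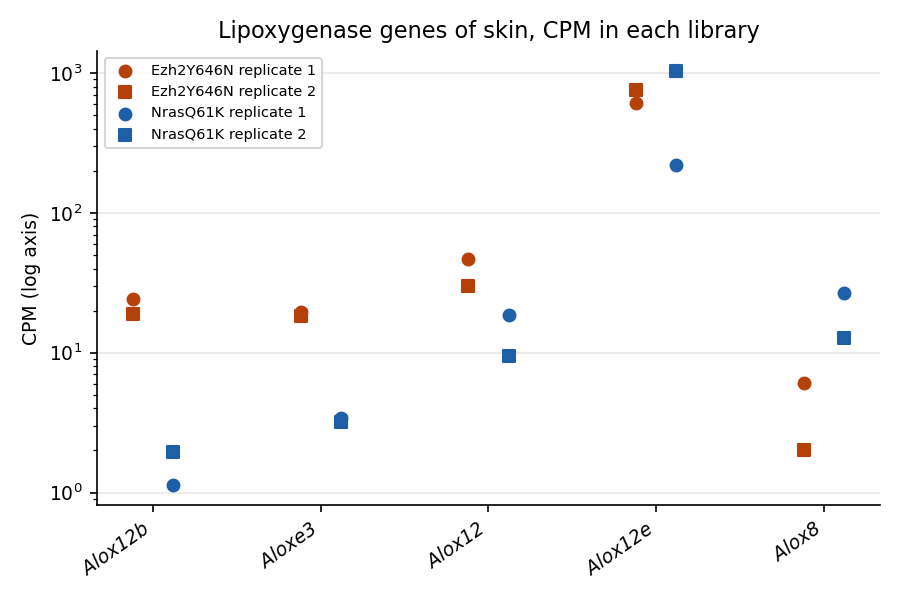
CPM (log axis) of 5 lipoxygenase genes in each library, with colour for group and shape for replicate number. Alox12b and Aloxe3 are higher in both Ezh2Y646N libraries, Alox8 is lower in both, and Alox12e overlaps between groups.

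Sdr9c7 also lies in a cluster of relatives, the retinol dehydrogenase genes of chromosome 10. Rdh1 (127759721 to 127768297) was at 19.4 and 16.6 CPM in Ezh2Y646N and 0.885 and 1.87 CPM in NrasQ61K, and rose with a log2 fold change of 3.68 and an SE of 0.45 (edgeR's adjusted p = 0.0243). Rdh9 (127776386 to 127792697) rose from 1.58 and 4.80 to 30.9 and 25.6 CPM (3.12, SE 0.50, edgeR's adjusted p = 0.0343). Rdh16, named after its values were seen, had 20 and 13 counts in Ezh2Y646N and 0 in both NrasQ61K libraries, at least 6.14-fold higher against a floor of 3 counts per library, without passing (edgeR's adjusted p = 0.102). Rdh7, which lies between Rdh16 and Sdr9c7, had 0 counts in all libraries. These genes are close copies, so reads may have been divided between them or lost, and their values are uncertain.

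Within 100 kb of the 10 genes lay 27 other tested genes, Alox8 and Rdh16 among them, with a median log2 fold change of -0.08. Of these 27, 2 rose, where 1.10% of all tested genes did: the protease gene Adamts17 beside Cers3 (1.43, edgeR's adjusted p = 0.0498) and Fndc9 near Nipal4 (2.54, 0.0498), both named after their values were seen.

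Across all genes, the protein-coding genes outside the list whose profile over the 4 libraries lay nearest to the mean profile of the members were Hspa12a, Rnf222, Gprin2, Trank1 and Me1. Nearness was the Euclidean distance between log2 CPM profiles centred on their own mean, and for these 5 it was 0.139 to 0.170 on the log2 scale, against 0.134 for Cyp4f39 and 1.70 for Nipal4, the nearest and farthest members. Me1, the cytosolic malic enzyme, which supplies NADPH for fatty acid synthesis, was at 177 and 130 CPM in Ezh2Y646N and at 27.6 and 47.4 CPM in NrasQ61K. Hspa12a was at 65.3 and 61.4 CPM against 11.4 and 17.5 CPM. The likeness rests on 4 libraries.

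Promoter sequences from RefSeq (GRCm38.p6) were matched for 9 of the 10 members; Aloxe3 had no entry. Ezh2 belongs to Polycomb repressive complex 2, which is known to gather at promoters rich in CG pairs, so CG pairs were counted in the 250 bases before each start. The members ranged from 2 to 25 pairs with a median of 7, and all 32841 promoters in the table had a median of 6, with quartiles of 2 and 16. Elovl4 had 25 pairs, Nipal4 19, Alox12b 11, Cyp4f39 10, Ephx3 7, Cers3 6, Pnpla1 5, Abca12 5 and Sdr9c7 2. The windows printed here are Elovl4 (chr9:83806306-83806555, minus strand) and Sdr9c7 (chr10:127898285-127898534, plus strand), the extremes among genes that rose, then Abca12 (chr1:71414911-71415160, minus strand) and Cers3 (chr7:66743254-66743503, plus strand), which rose and did not pass. Each is written 5′ to 3′ on the strand of its gene and ends at the base before the RefSeq start, and capitals mark CG pairs. The gene coordinates given above are from GENCODE. The GENCODE start lay before the RefSeq start by 17 bases for Sdr9c7, 79 for Ephx3, 83 for Alox12b and 149 for Nipal4. The windows of these genes therefore hold bases inside the GENCODE gene. For Elovl4 the offset was -28, with the GENCODE start after the RefSeq start.
Elovl4: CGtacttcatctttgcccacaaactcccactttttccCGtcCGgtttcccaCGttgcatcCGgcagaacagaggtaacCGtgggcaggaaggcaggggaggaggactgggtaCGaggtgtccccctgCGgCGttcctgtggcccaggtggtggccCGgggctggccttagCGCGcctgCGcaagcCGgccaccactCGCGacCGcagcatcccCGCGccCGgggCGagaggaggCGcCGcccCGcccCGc
Sdr9c7: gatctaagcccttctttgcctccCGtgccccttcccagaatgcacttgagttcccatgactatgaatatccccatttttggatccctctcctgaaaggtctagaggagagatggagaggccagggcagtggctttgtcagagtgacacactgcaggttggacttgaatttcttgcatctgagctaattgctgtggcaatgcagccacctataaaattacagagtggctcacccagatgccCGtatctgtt
Abca12: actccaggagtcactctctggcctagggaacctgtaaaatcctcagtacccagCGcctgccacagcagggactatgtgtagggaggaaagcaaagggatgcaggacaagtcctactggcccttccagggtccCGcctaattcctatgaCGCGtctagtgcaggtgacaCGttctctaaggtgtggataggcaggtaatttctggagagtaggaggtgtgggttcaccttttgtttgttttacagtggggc
Cers3: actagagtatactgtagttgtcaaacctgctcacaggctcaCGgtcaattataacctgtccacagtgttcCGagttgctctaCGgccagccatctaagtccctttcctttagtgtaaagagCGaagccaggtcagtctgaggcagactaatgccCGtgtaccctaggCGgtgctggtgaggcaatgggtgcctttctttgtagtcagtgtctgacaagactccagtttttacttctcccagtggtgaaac
No relation between CG pairs and the fold changes was tested.

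Motifs were searched by their letters on both strands in the same 250 bases. The KLF motif CACCC was in 6 of 9 members (Cers3, Pnpla1, Nipal4, Alox12b, Ephx3 and Sdr9c7) and in 52.0% of all promoters. The C/EBP motif TTGCNNAA was in 2 of 9, Nipal4 and Ephx3, and in 9.57% of all promoters. The AP-1 motif TGANTCA and the GRHL motif AACCNGTT were in 0 of 9, and in 6.75% and 1.79% of all promoters. The TATA box TATAAA was in Sdr9c7 alone, 42 bases before the RefSeq start, and in 12.4% of all promoters. A match describes letters in this window and not a bound site.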

How the data were processed

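RNA of 4 libraries, 2 per genotype, was prepared with a stranded pico-input total RNA kit with rRNA removal, per the labels' protocols. The deposited values are raw read counts per Ensembl gene, 1 table a library. Build GRCm38 and the tools STAR 2.5.4b, featureCounts, Trimmomatic, bcl2fastq 2.19 and edgeR are listed in the submitters' processing notes. Neither the annotation release nor the strand setting is given in the sources used here. Symbols, coordinates and exon lengths came from GENCODE, which matched 22291 of 22524 genes.

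Genes were filtered with filterByExpr (minimum count 10, minimum total 15) and tested with edgeR 4.0.16 (TMM factors, robust quasi-likelihood fit, Benjamini-Hochberg adjustment over 14265 genes, threshold 0.05) in R 4.3.3. Ratios were taken between CPM of the same library. The biological coefficient of variation was 27.9%, and the fit was tested on simulated data. Alternatives were RLE factors, total counts, no filter, DESeq2 1.42.0, limma voom (limma 3.58.1), a fit that was not robust, a replicate block and leaving out each library. Where an arm was left with 1 library, that library was assumed to vary like the other group.

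The members and gene lists were chosen with earlier results of these data known. Named genes were the members, 3 label checks, up to 3 genes of smallest p per pathway list, the 2 most abundant per marker list and the 5 genes nearest in profile (log2 CPM with a pseudocount of 0.5); every other gene named was chosen after its values were seen. Sts, Flg and Krt85 were listed but are not analysed here.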

Additional observations from a re-analysis of the deposited data

How the results depend on the processing

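All 10 members kept a positive log2 fold change in the 11 alternatives run. The count of members higher at the threshold was 9 with no filter on low counts and 9 in DESeq2, 5 with RLE factors and 5 without the robust fit, and it ranged from 3 to 10 as each library was left out. Over all genes, 157 were higher and 96 lower; the counts became 686 and 616 with no filter, 529 and 398 in DESeq2, and 49 to 730 and 43 to 393 as each library was left out. With RLE factors 138 of 14265 genes were higher, and 149 of 14265 were without the robust fit. The fit with no filter tested 18725 genes. With total counts 153 genes were lower. The median over all genes then moved from -0.04 to -0.16 and that of the members from 2.13 to 2.03. The labels give no pairing, so the replicate numbers are not taken to pair the libraries. The deviations of the replicate 1 libraries from their group means had a correlation of 0.11 over the 14265 tested genes. Those of the replicate 2 libraries mirror them and add no second comparison. A replicate block gave 710 higher, 627 lower and 9 members. It ended the calls of Sptlc3 (edgeR's adjusted p = 0.0588), Dgat2 (0.0860) and Cdsn (0.566). The level of the members relative to suprabasal markers, -0.48 on the log2 scale, became 2.11 relative to basal markers. Among the members, the label checks and the genes named by rule, signs turned in 6 genes that passed no threshold. Genes named after their values were seen were not in this count. The median of the basal list, 0.19, was -0.03 without Ezh2Y646N replicate 2 and -0.07 without NrasQ61K replicate 1. It was 0.39 without Ezh2Y646N replicate 1 and 0.68 without NrasQ61K replicate 2. As libraries were left out Ezh2 ranged from -0.55 to 0.59 (0.13 without Ezh2Y646N replicate 2), Nras from -0.22 to 0.064 (0.05 without NrasQ61K replicate 1), Krt5 from -0.50 to 0.77 (0.26 without Ezh2Y646N replicate 1), Krt14 from -0.90 to 0.57, Soat1 from -0.66 to 0.82 (0.12 without Ezh2Y646N replicate 1) and Tyrp1 from -0.38 to 0.37 (-0.16 without NrasQ61K replicate 1). Krt5 was 0.0015 with RLE factors, 0.0015 in DESeq2, 0.10 in limma voom and 0.082 with the block, Soat1 was 0.049 in limma voom and 0.037 with the block, and Tyrp1 was -0.061 with total counts. For each of these changes the cause was not tested. Depth limits the low members most: Alox12b rests on 18 and 41 counts in NrasQ61K and Sdr9c7 on 31 and 50.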
